A study of Mus musculus with 12 samples.

Results

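RNA levels of 56 genes for chromatin modifiers and remodelers were compared between aged and young monocytic myeloid-derived suppressor cells (M-MDSCs). The genes were chosen by name, for histone methylation, demethylation, acetylation, ATP-dependent remodeling and corepression, with no measured value in the rule. All 56 were among the 23420 genes of the table of counts, and all 56 were among the 9742 genes with enough counts to be tested. The cells were sorted as CD11b+Ly6G-Ly6Chi from the bone marrow of male C57BL/6JNIA mice, 6 aged (24 months) and 6 young (6 months), with 1 library of total RNA per mouse and no treatment, transgene or deletion in either group. The tissue label of all 12 libraries was tibia. The study asked how age changes these cells, which suppress immune responses and can give rise to osteoclasts.

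Chromatin modifiers write, remove or read chemical marks on histone tails, and remodelers use ATP to slide, evict or exchange nucleosomes. Methylation of lysine 4 of histone H3 (H3K4) marks promoters and enhancers of active genes, methylation of H3K36 marks transcribed gene bodies, and methylation of H3K27 by the polycomb complex marks silent genes. Acetylation loosens chromatin and is removed by histone deacetylases, which act within corepressor complexes. In myeloid cells many of these proteins are known as regulators of differentiation, and several of their genes are recurrently mutated in clonal haematopoiesis and myeloid leukaemia.

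Library totals were 8737941 to 16300374 counts in aged and 4613239 to 9079237 in young mice, and 3 counts corresponded to at most 0.643 CPM (counts scaled to the TMM-adjusted library total) in any library. The 56 genes took 0.661% to 0.796% of the counts in aged and 1.09% to 1.44% in young mice, so the ranges did not overlap. Monocyte markers had a summed level of 15500 to 21900 CPM in aged and 18500 to 23900 CPM in young mice, with 1 of 11 lower and 2 higher. Most of this sum was Lyz2, Chi3l3 and Itgam, which granulocytes also express, while Csf1r was at a mean of 141 CPM in aged and 134 CPM in young mice, Ccr2 at 31.2 and 37.1 CPM (5.03 CPM in the lowest aged mouse) and F13a1 at 21.0 and 26.9 CPM. Genes in use as neutrophil markers were also abundant, at 131000 to 154000 CPM in aged and 82700 to 129000 CPM in young mice, and 8 of 12 were higher in aged mice, beside 22.4% of all genes tested. Ly6g was not analysed here, and whether these levels reflect the sort gate or the sorted cells was not tested. All 10 macrophage markers were higher in aged mice, at 93.0 to 1220 CPM against 81.7 to 99.8 CPM. Of 17 genes of cycling cells 5 were lower, beside 23% of all genes tested, at 530 to 1140 CPM against 947 to 1690 CPM. The 3 tested RNAs that stay in the nucleus, Malat1, Neat1 and Kcnq1ot1, were all lower in aged mice, and their list summed to 2950 to 4970 CPM against 5660 to 9530 CPM. With a correction for gene length, described below, the macrophage markers higher were still 10, but the neutrophil markers higher were 2 (Mpo and Prtn3), the cycling genes lower were 3 and of the nuclear RNAs only Neat1 was lower. Erythroid markers summed to 0.832 to 5.69 CPM in aged and 0.116 to 0.592 CPM in young mice, and T and NK cell markers to 8.52 to 37.9 CPM against 6.82 to 12.1 CPM. Dendritic cell markers summed to 1.5 to 4.66 CPM against 4.74 to 9.37 CPM, with 1 of 2 tested lower (Clec9a). B and plasma cell markers summed to 136 to 246 CPM against 111 to 163 CPM, with 1 of 3 tested higher (Xbp1). The calls of Clec9a and Xbp1 held with the length correction. Cd8a was at 0 counts in all libraries, as were Hba-a1, Hbb-b1 and Hbb-b2, for which the mapping filter on near-identical copies leaves absence undecided. The part of these lists in the results below was not tested. In bulk RNA, fewer cells of a type and less RNA per cell cannot be told apart. The column names of the table carry a running S number, lower in every young than in every aged library, and no source used here says what it marks. Age and whatever goes with that number cannot be told apart.

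Young mice 5 and 6 stood apart from the other 4 young mice. They had the lowest neutrophil marker levels (82700 and 83700 CPM) and the highest levels of nuclear RNA (9530 and 8140 CPM) and of cycling genes (1690 and 1650 CPM) among young mice. For 30 of the 56 chromatin genes both of these mice were above the other 4. Aged mouse 1 had the highest macrophage marker level (1220 CPM), and aged mouse 7 had the lowest nuclear RNA level (2950 CPM), the highest level of cycling genes (1140 CPM) and the highest value among aged mice for 31 of the 56 genes. The counts of 30 and 31 were not taken over all genes tested, so they do not set the chromatin genes apart from other genes. Leaving out young mice 5 and 6 together left 40 of the 56 genes lower in aged mice, and leaving out aged mice 1 and 7 together left 43 lower, beside 41 with all 12 libraries. Both of these were chosen after seeing the data.

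The chromatin genes were predominantly lower in aged M-MDSCs. In the edgeR quasi-likelihood test, adjusted over all genes tested, 41 of 56 fell and 0 rose, while 23% of all genes tested fell and 22.4% rose. At an unadjusted p below the threshold of 0.05, 43 were lower and 1 was higher, and both DESeq2 and limma-voom also called 0 higher. Over all genes 2240 fell and 2185 rose, and with library totals in place of TMM factors 2762 fell and 1682 rose, of which 44 and 0 were among the 56. The median log2 fold change (aged over young) of the 56 genes was -0.55, against 0.01 over all genes tested, and 49 of the 56 estimates were negative. For 36 genes every aged mouse was below every young mouse, an order seen in 12.1% of all genes tested, and for 0 genes was every aged mouse above, an order seen in 9.68%. With the correction for gene length described below, 24 of the 56 were lower and 3 higher, beside 16.5% and 18.3% of all genes tested, and the median was -0.17. Without it, estimates ranged from -1.41 for Mll1 to 0.96 for Chd3, and the value for Chd3 rests on 2 to 53 counts per mouse.

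**Figure D1:**
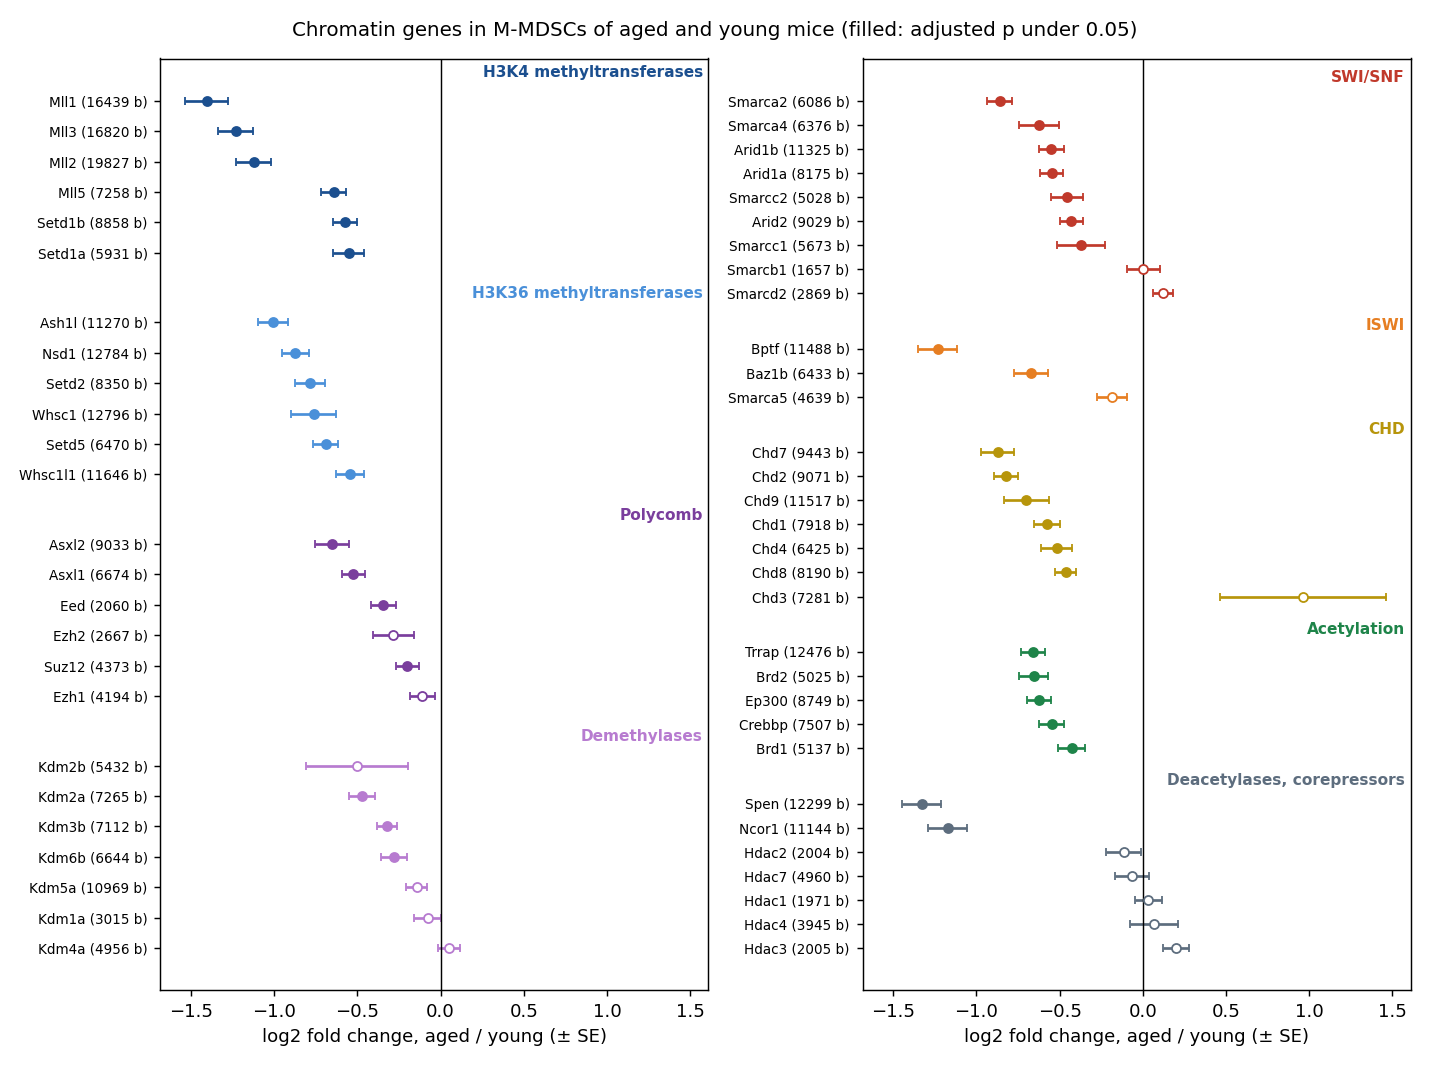
Log2 fold change (aged over young) of each of the 56 chromatin genes with its standard error (bars), grouped by role and ordered within each role, with the exonic length in bases (b) beside each name. Filled points passed the edgeR test at an adjusted p under 0.05: all 41 of them lie left of 0, and the 15 open points include all 5 histone deacetylases.

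All 6 genes grouped as H3K4 methyltransferases fell, of which 4 remained lower with the correction for length described below. Without that correction the genes named Mll had the largest falls. In all 6 every aged mouse was below every young mouse, and the median log2 fold change was -0.88. Mll1 (now Kmt2a), the gene rearranged in many leukaemias, had the largest fall of all 56 genes. Its exons total 16439 bases, and the gene lies at chr9:44803355-44881274 on the minus strand of mm10. Mll1 was at 71.8 CPM in the lowest, 79.05 in the median and 87.5 in the highest aged mouse, and at 170.8, 181.5 and 285.5 CPM in young mice. The groups were far apart, and the spread among young mice came from mice 5 and 6, at 285.5 and 259.7 CPM. The fold change of Mll1 was 0.377 (log2 -1.41, SE 0.13, adjusted p = 5.15e-06). Mll3 (now Kmt2c, 16820 bases), which methylates H3K4 at enhancers, had the smallest p-value among them. It was at 166.5, 191.4 and 235.9 CPM in aged (lowest, median, highest) and at 401.7, 447.3 and 557.9 CPM in young mice. No aged value reached the young range, and the log2 fold change was -1.23 (SE 0.10, adjusted p = 4.65e-06). Mll2 (now Kmt2d), its close relative and with 19827 bases the longest of the 56 genes, fell by 1.12 on the log2 scale (SE 0.11). The remaining 3 genes were shorter and fell less. Mll5 (now Kmt2e, 7258 bases), a SET-domain protein of haematopoietic stem cells, had a log2 fold change of -0.64. Setd1b (8858 bases) and Setd1a (5931 bases), catalytic subunits of the complexes that trimethylate H3K4 at promoters, had -0.57 and -0.55.

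Promoter sequences of 39 of the 56 genes were matched in RefSeq (GRCm38.p6), as the 250 bases before and 50 bases after a start site. The start nearest to the deposited gene start was taken, which was 31948 bases away for Hdac4, 27296 for Setd5, 20188 for Chd8, 5340 for Smarcd2 and at most 374 for the other genes. All 39 entered the shares given after the sequences. They are shown for the genes with the largest falls of 3 roles, Mll1, Spen and Bptf, for Ncor1 as the partner of histone deacetylases, and for Hdac2, which was not called. The sequences are Mll1 at chr9:44881240-44881539, Spen at chr4:141538548-141538847, Bptf at chr11:107132098-107132397 and Ncor1 at chr11:62457283-62457582, all on the minus strand, and Hdac2 at chr10:36974294-36974593 on the plus strand. Each runs 5′ to 3′ on the strand of the gene, and capitals mark the GC box GGGCGG and the ETS core CCGGAA on either strand:
Mll1: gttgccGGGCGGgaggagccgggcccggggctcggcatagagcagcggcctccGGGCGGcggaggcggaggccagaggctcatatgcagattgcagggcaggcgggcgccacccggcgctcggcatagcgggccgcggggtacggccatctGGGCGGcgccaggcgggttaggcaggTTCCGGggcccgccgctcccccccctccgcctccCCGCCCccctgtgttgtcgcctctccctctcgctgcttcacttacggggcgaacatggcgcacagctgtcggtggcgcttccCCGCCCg
Spen: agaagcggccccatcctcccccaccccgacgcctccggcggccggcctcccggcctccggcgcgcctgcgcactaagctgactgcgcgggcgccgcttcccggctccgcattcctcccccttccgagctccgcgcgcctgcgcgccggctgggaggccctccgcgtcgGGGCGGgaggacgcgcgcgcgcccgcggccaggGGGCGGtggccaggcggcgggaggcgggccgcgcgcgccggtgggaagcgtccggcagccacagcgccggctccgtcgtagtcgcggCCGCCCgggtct
Bptf: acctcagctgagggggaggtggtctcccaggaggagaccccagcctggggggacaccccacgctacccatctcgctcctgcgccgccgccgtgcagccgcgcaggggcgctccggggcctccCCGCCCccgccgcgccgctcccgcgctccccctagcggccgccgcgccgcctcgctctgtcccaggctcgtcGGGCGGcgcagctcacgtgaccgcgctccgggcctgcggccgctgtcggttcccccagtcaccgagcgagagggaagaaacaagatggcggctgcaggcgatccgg
Ncor1: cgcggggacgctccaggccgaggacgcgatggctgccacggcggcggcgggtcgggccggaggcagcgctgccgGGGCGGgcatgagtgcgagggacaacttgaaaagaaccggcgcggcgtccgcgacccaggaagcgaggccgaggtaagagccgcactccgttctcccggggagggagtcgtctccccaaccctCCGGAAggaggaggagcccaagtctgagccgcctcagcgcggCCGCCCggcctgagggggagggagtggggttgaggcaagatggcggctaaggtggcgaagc
Hdac2: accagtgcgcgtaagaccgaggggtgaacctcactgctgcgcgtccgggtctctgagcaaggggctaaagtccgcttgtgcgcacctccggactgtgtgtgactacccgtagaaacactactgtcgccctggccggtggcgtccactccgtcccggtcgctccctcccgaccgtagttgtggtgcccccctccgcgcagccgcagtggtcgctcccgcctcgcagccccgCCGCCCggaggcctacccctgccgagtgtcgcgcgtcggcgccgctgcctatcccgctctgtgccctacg
All 5 sequences held a GC box, whether or not the gene fell, and Mll1 and Ncor1 also held an ETS core. Over the 39 matched promoters, 30 (76.9%) held GGGCGG on either strand, against 35.7% of the 32851 promoters of the same length in the table, and 9 (23.1%) held CCGGAA, against 14.9%. CCAAT was found in 23.1% against 37.4%, and TATAAA in 2.56% against 13.6%. The median GC content of the 39 promoters was 68.3%, against 52.7% over the table, and the median number of CG dinucleotides was 32 against 7. These motif matches describe the letters in the window and were not related to the changes with age.

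All 6 H3K36 methyltransferase genes fell as well, with no overlap between ages in any of them. Their median log2 fold change was -0.77, and 4 remained lower with the length correction. Ash1l (11270 bases), a trithorax-group protein that dimethylates H3K36 and counters polycomb silencing, led the group by size and by p-value. It was at 83.8, 95.7 and 109.3 CPM in aged and at 171.4, 183.1 and 236.6 CPM in young mice (lowest, median, highest). The aged values were thus close to 0.497 of the young ones (log2 -1.01, SE 0.09, adjusted p = 5.15e-06). Nsd1 (12784 bases), which dimethylates H3K36 and is mutated in an overgrowth syndrome, had a log2 fold change of -0.87. Setd2 (8350 bases), the enzyme responsible for H3K36 trimethylation, had -0.79. Its relative Setd5 (6470 bases), whose activity is less settled, had -0.69. Whsc1 (now Nsd2, 12796 bases), the myeloma translocation gene, had -0.76, and Whsc1l1 (now Nsd3, 11646 bases) had -0.54.

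Among 6 polycomb genes, 4 fell and the pair of catalytic subunits did not pass the test. With the length correction 2 remained lower, Eed and Asxl1. Asxl2 (9033 bases), an adaptor of the H2A deubiquitinase Bap1, had the largest fall. It was at 41.9, 46.4 and 67.0 CPM in aged and at 71.4, 76.7 and 87.7 CPM in young mice, with aged mouse 7 just below the young range (log2 fold change -0.65, SE 0.10, adjusted p = 0.00025). Its relative Asxl1 (6674 bases), often mutated in clonal haematopoiesis, had the smallest p-value. It was at 189.8, 219.4 and 236.8 CPM in aged and at 291.7, 307.8 and 338.3 CPM in young mice. The gap between the ages was wider than the range within either (log2 -0.53, SE 0.07, adjusted p = 6.89e-05). Of the polycomb repressive complex 2, Eed (2060 bases), which binds the methylated histone, had -0.34 with no overlap, and the scaffold Suz12 (4373 bases) had -0.20 with overlapping ages. Eed was the shortest of the 41 genes that fell. The H3K27 methyltransferases Ezh2 (2667 bases) and Ezh1 (4194 bases) had estimates of -0.28 (adjusted p = 0.0668) and -0.11 (adjusted p = 0.239).

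Of 7 histone demethylase genes 3 fell, and the median log2 fold change was -0.28. All 3 lost their call with the length correction, in which 2 others were higher. Kdm2a (7265 bases), which removes H3K36 methylation at CpG islands, led the called genes by size and by p-value. It was at 177.7, 220.0 and 239.1 CPM in aged and at 274.5, 298.3 and 318.5 CPM in young mice. No values overlapped, and the log2 fold change was -0.47 (SE 0.08, adjusted p = 0.000302). Kdm3b (7112 bases), an H3K9 demethylase, had -0.32, and Kdm6b (6644 bases), the H3K27 demethylase induced in activated macrophages, had -0.28 with overlapping ages. The other 4 did not pass the test. Kdm2b (5432 bases), a subunit of a variant polycomb complex, had -0.50 at 1.61 to 7.74 CPM over all mice, with a standard error of 0.31. Kdm5a (10969 bases), which removes H3K4 methylation, had -0.14 (adjusted p = 0.073) and was the only gene longer than 10 kb among the 56 that was not called. Kdm1a (3015 bases), the demethylase of the CoREST complex, had -0.08, and Kdm4a (4956 bases), which acts on H3K9 and H3K36, had 0.05.

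**Figure D2:**
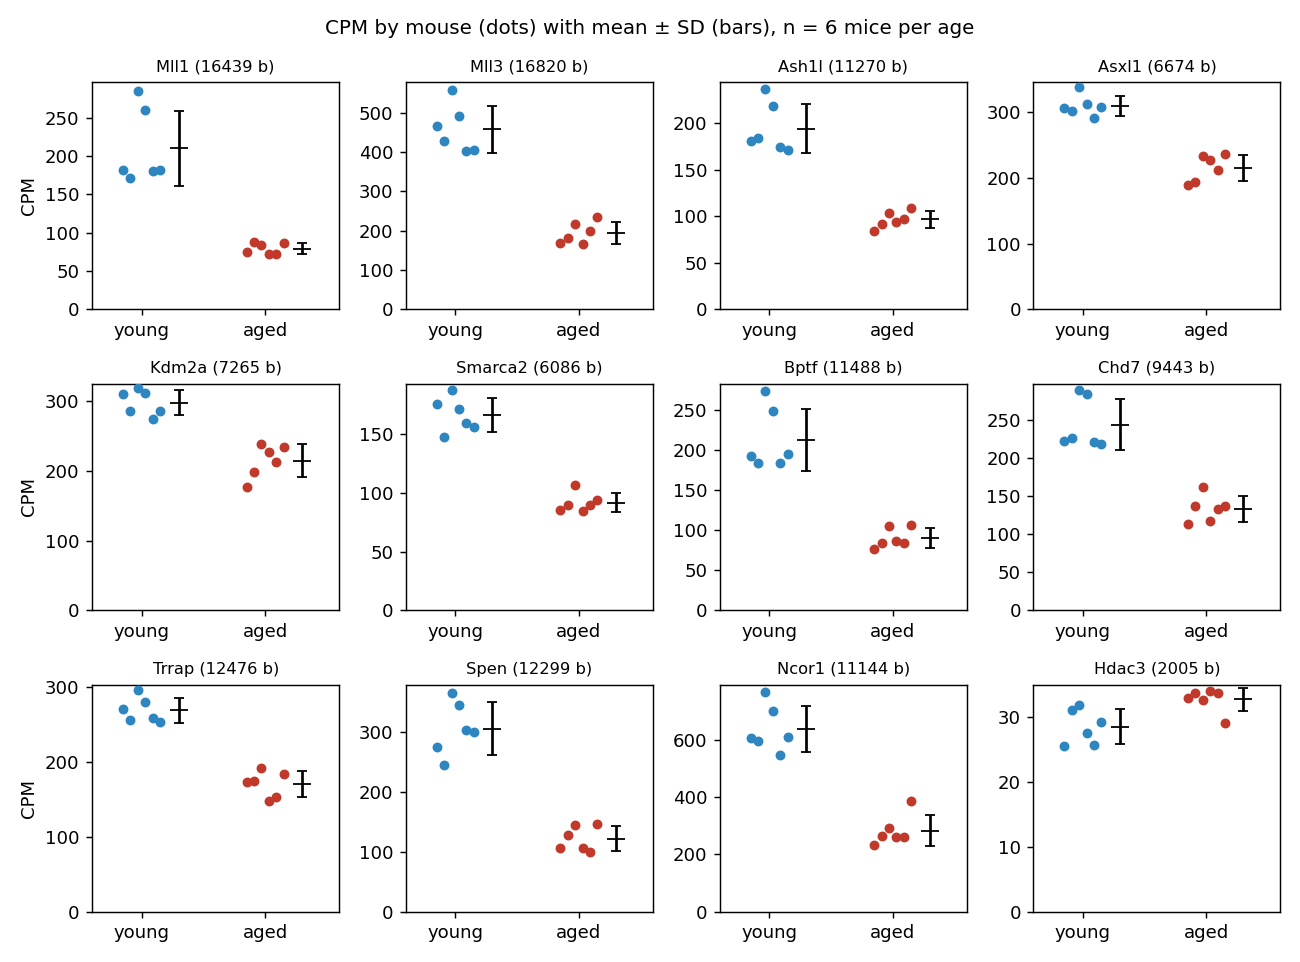
CPM of 12 chromatin genes in each of 6 young (blue) and 6 aged (red) mice, with mean ± SD as bars and the exonic length in bases (b) in each title. Every aged mouse is below every young mouse for all genes shown except Hdac3, whose ages overlap.

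Of 9 genes of the SWI/SNF (BAF) remodelers 7 fell, and 3 of these remained lower with the length correction, Smarca2, Smarca4 and Smarcc2. Smarca2 (6086 bases), one of the alternative ATPases, led the group by size and by p-value. It was at 84.5, 89.5 and 106.9 CPM in aged and at 147.5, 165.1 and 187.4 CPM in young mice. The groups did not overlap (log2 fold change -0.86, SE 0.07, adjusted p = 4.65e-06). The other ATPase, Smarca4 (6376 bases), had -0.62 (SE 0.12), and its ages overlapped through aged mouse 7, at 83.4 CPM against 81.8 CPM in the lowest young mouse. The DNA-binding subunits Arid1b (11325 bases), Arid1a (8175 bases) and Arid2 (9029 bases) had log2 fold changes of -0.55, -0.55 and -0.43, none with overlap. The core subunits Smarcc2 (5028 bases) and Smarcc1 (5673 bases) had -0.46 and -0.37 with overlap. The shortest subunits did not change detectably. Smarcb1 (1657 bases), the core subunit lost in rhabdoid tumours, had 0.00 (SE 0.10, adjusted p = 0.98), and Smarcd2 (2869 bases), known for its role in neutrophil granule formation, had 0.12 (SE 0.06, adjusted p = 0.113).

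In the ISWI group the accessory subunits fell and the ATPase did not pass the test. Bptf (11488 bases), the large NURF subunit that reads H3K4 trimethylation, was at 77.2, 85.2 and 106.5 CPM in aged and at 183.4, 193.4 and 272.9 CPM in young mice. Its groups were far apart, with a fold change of 0.425 (log2 -1.23, SE 0.12, adjusted p = 6.15e-06). Baz1b (6433 bases), of the WICH complex, had -0.67. Bptf and Baz1b remained lower with the length correction, at -0.62 and -0.37. The ATPase Smarca5 (4639 bases) had -0.18 (SE 0.09, adjusted p = 0.106).

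Of 7 CHD remodelers, which carry paired chromodomains, 6 fell, all without overlap, and 4 of these remained lower with the length correction. Chd7 (9443 bases), mutated in CHARGE syndrome, had the largest fall. It was at 112.9, 134.6 and 162.3 CPM in aged and at 218.8, 224.3 and 288.7 CPM in young mice (log2 fold change -0.87, SE 0.10, adjusted p = 2.61e-05). Chd2 (9071 bases), which deposits the histone variant H3.3, had the smallest p-value. Its levels were 87.4, 96.4 and 101.2 CPM in aged and 144.4, 170.8 and 189.3 CPM in young mice (log2 fold change -0.82, SE 0.07, adjusted p = 4.65e-06). Neither gene had an aged mouse within the young range. Chd9 (11517 bases), Chd1 (7918 bases), Chd4 (6425 bases) and Chd8 (8190 bases) had -0.70, -0.58, -0.52 and -0.46. Chd4 is the main ATPase of the NuRD complex. Its alternative Chd3 (7281 bases) was near the limit of detection, at 1.02 to 5.91 CPM in aged and 0.237 to 2.06 CPM in young mice, and was not called (log2 0.96, SE 0.50, adjusted p = 0.126).

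All 5 genes of histone acetylation and its readers fell without overlap, in a narrow range of -0.66 to -0.43. With the length correction 3 remained lower, and Trrap (0.00, adjusted p = 0.972) and Crebbp (-0.17, adjusted p = 0.0589) were not called. Trrap (12476 bases), the scaffold that brings transcription factors to acetyltransferase complexes, led by size and by p-value. It was at 147.9, 173.5 and 192.3 CPM in aged and at 253.5, 265.1 and 295.8 CPM in young mice (log2 fold change -0.66, SE 0.07, adjusted p = 2.03e-05). The acetyltransferases Ep300 (8749 bases) and Crebbp (7507 bases) had -0.62 and -0.55. The bromodomain proteins Brd2 (5025 bases) and Brd1 (5137 bases) had -0.65 and -0.43.

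Corepressors and deacetylases divided. The corepressors Spen and Ncor1, which bring deacetylases to repressed genes, were among the largest falls, while none of the 5 histone deacetylase genes passed the test. Spen (12299 bases), the cofactor of X inactivation and Notch target repression, was at 99.9, 117.5 and 146.6 CPM in aged and at 246.1, 301.6 and 366.5 CPM in young mice. Its fold change was 0.398 (log2 -1.33, SE 0.12, adjusted p = 4.92e-06), with no overlap. Ncor1 (11144 bases), the nuclear receptor corepressor that activates Hdac3, was at 233.7, 263.1 and 385.0 CPM in aged and at 548.0, 607.4 and 766.1 CPM in young mice. Its fold change was 0.444 (log2 -1.17, SE 0.12, adjusted p = 7.83e-06). Hdac3 (2005 bases) itself had 0.20 (SE 0.08, adjusted p = 0.0524), the 1 gene of the 56 that was higher at an unadjusted p under 0.05. Hdac1 (1971 bases), Hdac2 (2004 bases), Hdac4 (3945 bases) and Hdac7 (4960 bases) had 0.03, -0.12, 0.07 and -0.06, and the ages overlapped in all 5. Whether corepressors and deacetylases differed in their change was not tested.

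Falls went with exonic length, in these genes and across the table. The 41 genes that fell had a median length of 8190 bases (2060 to 19827), and the 15 others one of 3945 bases (1657 to 10969). The median of the 56 genes was 7185 bases, against 2890 bases over all genes tested. Spearman's rho between length and log2 fold change was -0.77 across the 56 genes and -0.48 across all 9742, given as a description, since genes of the same libraries are not independent replicates. Of genes tested with at least 10 kb of exons, 81.5% were lower in aged mice with a median of -0.64, and 13 of the 14 chromatin genes of that length were lower with a median of -0.94. From 8 to 10 kb, 68% of all genes and 9 of 9 chromatin genes were lower, with medians of -0.40 and -0.62. From 6 to 8 kb, 55.3% of all genes and 12 of 13 chromatin genes were lower, with medians of -0.30 and -0.55. From 4 to 6 kb, 38.2% of all genes and 6 of 11 chromatin genes were lower, with medians of -0.17 and -0.37. Between 2 and 4 kb 16.9% of all genes and 1 of 7 chromatin genes were lower, and below 2 kb 6.14% and 0 of 2, where 42.9% of all genes were higher. In each class from 4 kb upward the median of the chromatin genes was below that of all genes of the class. The cause of the trend with length was not tested.

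**Figure D3:**
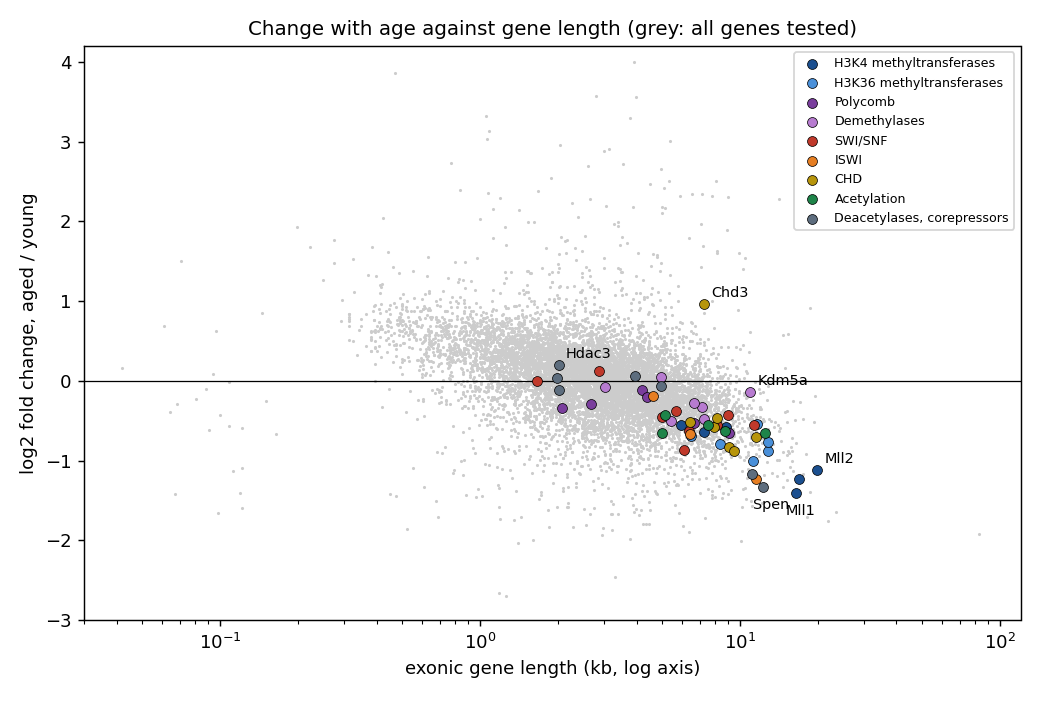
Log2 fold change (aged over young) against exonic length in kb (log axis) for all 9742 genes tested (grey) and the 56 chromatin genes (coloured by role). The grey cloud slopes downward with length (Spearman's rho -0.48) and most chromatin genes lie in its long, falling end, with Chd3 (0.96) the highest of them.

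When the trend of counts with length was removed within each library, 24 of the 56 genes were lower and 3 were higher in aged mice. All 24 were among the 41 that fell without the correction. The median log2 fold change over all genes was 0.02. The corepressors remained among the largest falls, with Spen at -0.69 (adjusted p = 0.000154) and Ncor1 at -0.58 (adjusted p = 0.000155). Bptf was at -0.62, Smarca2 at -0.58 and Mll1 at -0.57, all with an adjusted p of 0.000441 or smaller. In the H3K4 group Mll3, Mll5 and Setd1a, in the H3K36 group Setd2, Setd5, Nsd1 and Ash1l, and the readers and writers of acetylation Ep300, Brd1 and Brd2 also remained lower, as did Eed (-0.44), the only polycomb repressive complex 2 subunit to do so. The other 17 were no longer called. Among them were Asxl2, Kdm2a and Trrap, which led their groups above, and Mll2, the longest gene. Mll2 went from -1.12 to -0.17 and Trrap from -0.66 to 0.00. The rest were Setd1b, Whsc1, Whsc1l1, Suz12, Kdm3b, Kdm6b, Arid1a, Arid1b, Arid2, Smarcc1, Chd8, Chd9 and Crebbp. Thus no demethylase and no Arid gene among the 56 remained lower, which does not hold for such genes outside the 56. Of the demethylases 2 were higher, Kdm5a at 0.43 (adjusted p = 0.000843) and Kdm4a at 0.24 (adjusted p = 0.0186), and Chd3 was at 1.34 (adjusted p = 0.044). Chd3 had only 2 to 53 counts per mouse. The medians of role groups were then -0.37 for the 3 ISWI genes, -0.28 for H3K4 and -0.27 for H3K36 methyltransferases. They were -0.19 for polycomb, -0.17 for CHD, -0.17 for acetylation and -0.13 for SWI/SNF genes, -0.08 for deacetylases and corepressors, and 0.03 for demethylases. Differences between role groups were not tested.

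**Figure D4:**
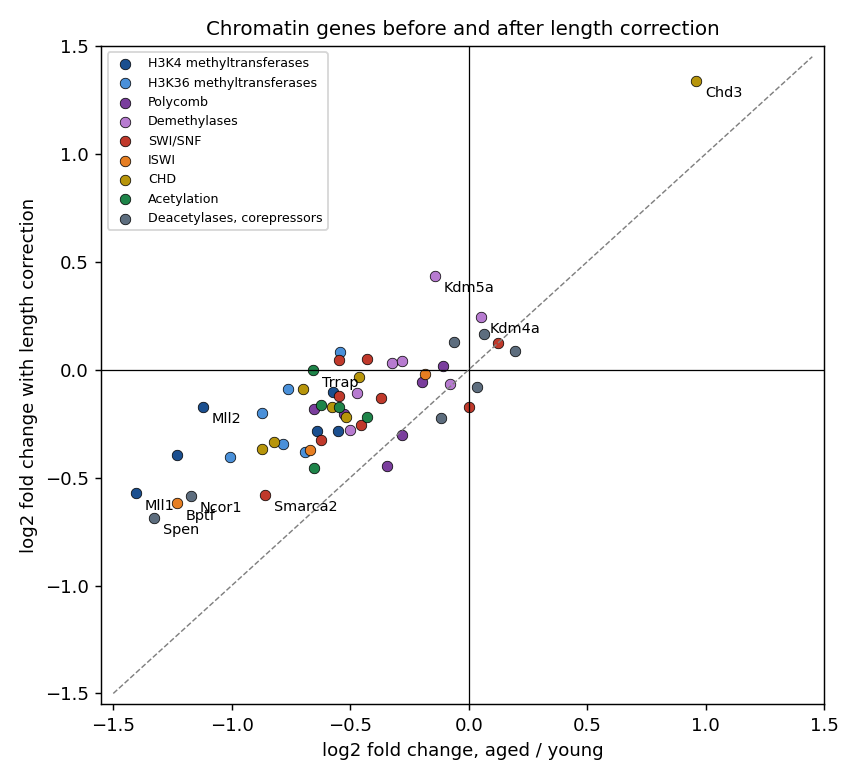
Log2 fold change of each of the 56 chromatin genes with all genes compared as counted (horizontal) and with the length trend of each library removed (vertical), coloured by role, with the dashed line marking equal values. Long genes lie far above the line, among them Mll1, Mll2, Spen and Trrap, and after the correction Spen, Bptf, Ncor1, Mll1 and Smarca2 have the lowest values, between -0.69 and -0.57.

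The order of levels, on the scale of CPM per kb of exons, was led by the same pair of genes in both ages. In young mice Kdm6b was at 88.5 ± 4.93 CPM per kb (SD, n = 6) and Ep300 at 75.8 ± 3.76, followed by Mll2 at 57.3 ± 8.45 and Ncor1 at 57.2 ± 7.18, which did not differ beyond their spread. In aged mice Kdm6b was at 72.9 ± 8.61 and Ep300 at 49.1 ± 5.08, followed by Hdac4 at 42.5 ± 5.12 and Smarcd2 at 40.2 ± 2. Mll2 and Ncor1 were at 26.3 ± 3.58 and 25.4 ± 4.8 in aged mice. At the low end, Kdm2b and Chd3 were last in both ages, below 1 CPM per kb.

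Within gene pairs of related sequence or function, the ratio of counts in the same library does not depend on how libraries are scaled. The ratios were not corrected for length, and they carry the length trend where the genes of a pair differ in length. For 14 such pairs the log2 ratio was compared by an exact two-sided permutation test over all regroupings of the mice by age, with adjustment over the 14 pairs. Of these, 0 passed after adjustment and 1 had an unadjusted p under 0.05. That pair, Chd3 to Chd4 (7281 and 6425 bases), had a mean log2 ratio of -6.96 ± 0.90 (SD, n = 6) in aged and -8.40 ± 0.97 in young mice (exact p = 0.0108, adjusted p = 0.152). Chd3 was at only 2 to 53 counts per mouse, and the outermost ratios were those of aged mouse 1 (-5.22) and young mouse 10 (-10.08). For Ep300 to Crebbp (8749 and 7507 bases) the ratio was 0.80 ± 0.07 in aged and 0.88 ± 0.10 in young mice, and for Arid1a to Arid1b (8175 and 11325 bases) it was 1.49 ± 0.06 and 1.48 ± 0.10. These pairs fell side by side in level with differences in ratio of -0.08 and 0.01. Smarca2 to Smarca4 (6086 and 6376 bases) had a difference of -0.22, Chd8 to Chd9 (8190 and 11517 bases) one of 0.25 and Mll2 to Mll3 (19827 and 16820 bases) one of 0.12. With the length correction the log2 fold changes were -0.122 for Arid1a and 0.045 for Arid1b, and -0.036 for Chd8 and -0.091 for Chd9. They were -0.173 for Mll2 and -0.397 for Mll3, and of these genes only Mll3 was then called. The adjusted p-values of all pairs other than Chd3 to Chd4 were 0.369 or larger, which does not show that the ratios were equal.

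**Figure D5:**
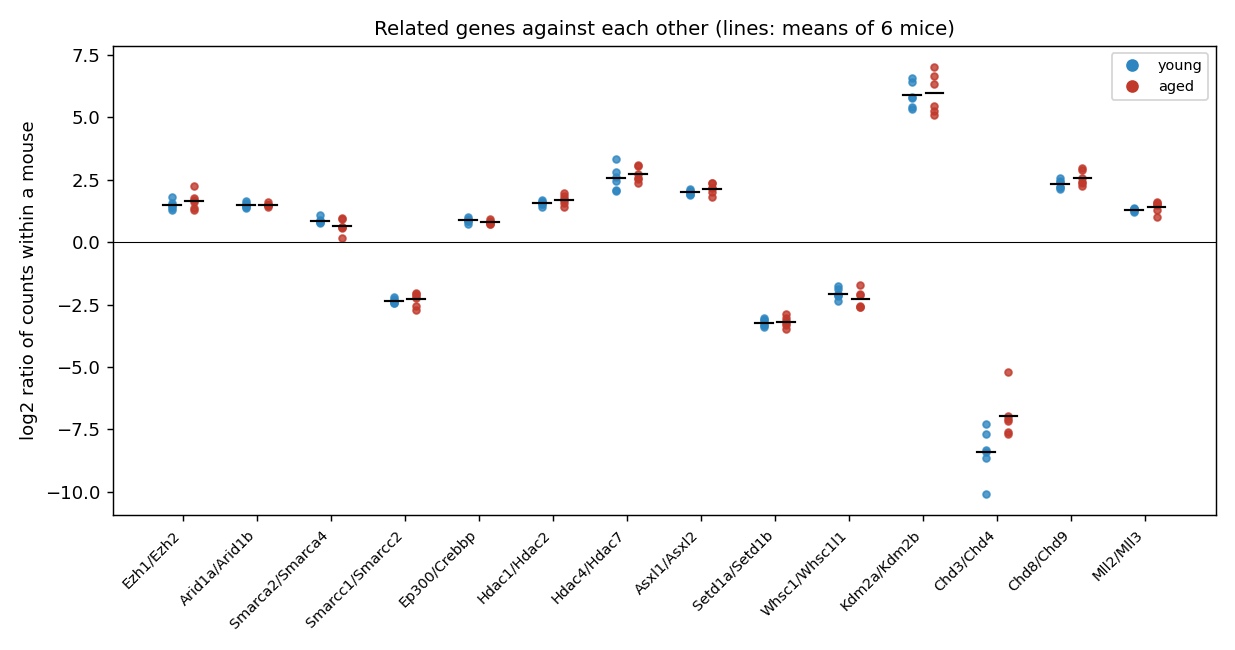
Log2 ratio of counts of 14 pairs of related genes in each young (blue) and aged (red) mouse, with black lines at the mean of 6 mice. The ages overlap in every pair, and the largest shift, for Chd3 to Chd4, is between ranges of -10.08 to -7.29 in young and -7.67 to -5.22 in aged mice.

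Further chromatin genes, listed by name and called partner genes here, were mostly shorter and were more often lower than higher. Of 142 partner genes found, 132 were tested, with 48 lower and 8 higher, beside 23% lower and 22.4% higher over all genes tested. Their median log2 fold change was -0.16, and their median length was 3104 bases. With the length correction 35 were lower and 13 higher, beside 16.5% and 18.3% over all genes. The largest called falls were those of Atrx (10244 bases), the remodeler that places H3.3 at repeats, at -1.35 (SE 0.17), Chd6 (10549 bases) at -0.96 (SE 0.14) and Baz2b (7980 bases), a partner of ISWI ATPases, at -0.95 (SE 0.11). The largest called rises were those of Chrac1 (851 bases), an ISWI subunit, at 0.75 (SE 0.21), Mta3 (3059 bases), a NuRD subunit, at 0.60 (SE 0.16) and Sap30 (1183 bases), a Sin3 subunit, at 0.57 (SE 0.11). Mta3 and Sap30 remained higher with the length correction, at 0.62 and 0.28, and Atrx, Chd6 and Baz2b remained lower, at -0.80, -0.39 and -0.54. Among complexes, 4 of 5 other SNF2-type ATPases, 5 of 7 other ISWI-related genes and 7 of 10 other methyltransferases, of H3K9, H4K20, H3K79 and further substrates, were lower, and with the length correction these were 3, 1 and 3. Of the 8 other NuRD genes 2 were higher, Mta3 and Rbbp4 (4407 bases, 0.33, SE 0.08), and 6 were not called, a share of rises near the 22.4% of all genes tested.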

How the data were processed

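RNA of sorted M-MDSCs was sequenced in pairs from stranded libraries of 12 mice. The authors counted fragments per gene over the exons of a UCSC annotation of mm10 with featureCounts 2.0.0, in strand-specific mode and with a minimum mapping quality of 60, and deposited raw counts without normalization. The aligner is not given in the sources used here. The mapping filter lowers genes with near-identical copies. No column was left out.

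Counts were fitted over the whole table with edgeR 4.0.16 (R 4.3.3, filterByExpr, TMM, quasi-likelihood test, age as the only term), with Benjamini-Hochberg adjustment over 9742 genes and calls at an adjusted p-value under 0.05. Called, lower, higher, fell and rose refer to these calls. CPM are counts scaled to a common TMM-adjusted library total, and lengths are the deposited exonic lengths. Standard errors are the log2 fold change over the root of its F statistic. The length correction removed, in each library, a loess curve (span 0.3) of log2 CPM (prior count 2) on log10 length by offsets. The ratios of related genes used a pseudocount of 0.5, and the smallest p of their exact test is 0.00216. No pair of libraries of an age differed by as little as sampling noise (chi-square per gene at least 1.68). The biological coefficient of variation was 15.7%. Counting error is small beside this at high counts but not at low ones, such as those of Kdm2b (17 to 86 counts) and Chd3 (2 to 53 counts). The fit and the correction were tested on simulated data. Alternatives were DESeq2 1.42.0, limma-voom 3.58.1, other scalings and filters, thinned libraries and mice left out. Per role group, the called gene with the largest fall and the gene with the smallest p-value were given in full, and the 3 largest called falls and rises of partner genes were named. Genes, lists and tests were chosen with earlier results of these data known. The p-values measure the spread between these mice only. Figures were drawn with matplotlib 3.10.9. Of the partner genes listed, Srcap was not analysed here.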

Additional observations from a re-analysis of the deposited data

Results flagged for a closer look

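In 9 of 112 sets of 6 mice (56 genes in each age), 1 mouse stood apart from the others by Dixon's criterion, which chance meets in about 1 of 20 sets. Aged mouse 7 was the highest aged mouse for Setd5 (100 CPM, next 89.5), Whsc1 (68.5 CPM, next 51.0), Asxl2 (67.0 CPM, next 48.7), Smarca4 (83.4 CPM, next 58.7) and Chd1 (112 CPM, next 92.0), and the lowest for Hdac3 (29.1 CPM, next 32.7). Aged mouse 4 was apart for Setd1b (323 CPM, next 262). Aged mouse 1 was apart for Chd3 (5.91 CPM, next 2.44), and young mouse 5 for Hdac2 (16.1 CPM, next 13.3). Of these genes, Setd5, Whsc1, Asxl2, Smarca4, Chd1 and Setd1b were called lower with all mice included.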

How the results depend on the processing

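Outside the length correction, 38 to 44 of the 56 genes were lower in aged mice under every alternative run, and no called change reversed. Genes not called with the main settings were called lower in some of these, Ezh2 and Smarca5 in 4 each, Kdm5a in 3 and Kdm2b in 1. With library totals in place of TMM factors, 44 of the 56 were lower and 0 higher, and the share of rises among all called genes fell to 37.8% from 49.4%. Calls of higher genes were 2 with upper quartile scaling (Hdac3 and Smarcd2), 1 (Hdac3) with at least 10 counts required in every mouse, with libraries thinned to the smallest total and with aged mice 1 and 7 left out, and 0 to 1 when each mouse was left out in turn. Hdac3 was called higher without aged mouse 7, young mouse 2 or young mouse 5. In the 12 fits that left out 1 mouse, 39 of the 41 genes were always called. Suz12 was not called without aged mouse 2, 4 or 5 or young mouse 1, 5, 6 or 10, and Smarcc1 not without aged mouse 2, 4, 5 or 6 or young mouse 5, 6, 9 or 10. Partner genes called higher were 15 with upper quartile scaling, 13 with the length correction and 5 without young mice 5 and 6.

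Of the alternatives on all 12 mice, the length correction lost the most calls, with 24 lower, 3 higher, a median of -0.17, and 17 genes whose ages did not overlap in place of 36. The 17 are not split by direction. The share of all genes without overlap is not given for the correction, so the 17 has no background here. The estimates of Whsc1l1 (0.084), Kdm3b (0.033), Kdm5a (0.435), Kdm6b (0.040), Arid1b (0.045) and Arid2 (0.048), each called with or without the correction, turned positive. The cause was not tested.

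For the 8 mice whose numbers occur in both ages, the deviations of mice with the same number were correlated at -0.25 to -0.07. Whether mice of the same number share more than the number was not tested. In these 8 mice the replicate block gave 38 genes lower and a median of -0.66, and no replicate block gave 42 and -0.66. The replicate block with length correction gave 16 lower, 1 higher, 17 called, a median of -0.18 and 19 partner genes lower and 3 higher, in 8 mice only, with Whsc1l1 at 0.104, Kdm3b at 0.047, Kdm5a at 0.525, Kdm6b at 0.072, Arid1b at 0.075, Arid2 at 0.054 and Trrap at 0.005.

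Age and the S number of the libraries cannot be told apart, the sorted cells held changing levels of markers of other cells, and depth limits Chd3 and Kdm2b.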

Other observations

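Partner genes not described above were mixed by complex. Of 10 further subunits of the H3K4 methyltransferase complexes 4 fell, led by Ncoa6 (6872 bases, log2 fold change -0.83, SE 0.09), a coactivator that joins Mll2 and Mll3. With the length correction 2 of these subunits remained lower, Ncoa6 and Rbbp5. Dot1l (5694 bases), the only known H3K79 methyltransferase, fell by 0.89 on the log2 scale (SE 0.19) with overlapping ages, and Setd8 (2738 bases), which monomethylates H4K20, fell by 0.63 (SE 0.10) without overlap. Both remained lower with the length correction, at -0.64 and -0.64. Brd3 (5565 bases), a bromodomain protein, had -0.72 (SE 0.11), and the acetyltransferase Kat6a (9126 bases) had -0.70 (SE 0.07). Arid4a (5780 bases) and Arid4b (6105 bases), subunits of the Sin3 deacetylase complex, had -0.87 (SE 0.08) and -0.78 (SE 0.07), without overlap. With the length correction Arid4a and Arid4b remained lower, at -0.617 and -0.495. Of 11 INO80 and SWR genes 2 fell, the ATPases Ino80 (6296 bases, -0.48) and Ep400 (10798 bases, -0.48), beside 23% of all genes tested, and 3 rose, beside 22.4%, the short subunits Znhit1 (1032 bases, 0.38), Mcrs1 (1916 bases, 0.33) and Yeats4 (1408 bases, 0.23). None of these 5 was called with the length correction, in which Ep400 was at 0.10. Apart from the counts by complex, these genes were chosen after their values were seen.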
